A study of Mus musculus with 15 samples.

Results

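The nebulin family was examined in mouse hearts as 4 genes taken by name from the deposited table of 17447 genes, Neb, Nebl, Nrap and Lasp1, and all 4 passed the filter on low counts, as did 13021 genes in all. The members were chosen by name with their fold changes and levels in these same counts in view, so the levels and fold changes of its members are given as a description and carry no p-value. The RNA came from the hearts of 15 male C57BL/6J mice in 5 groups of 3, taken 18 weeks after subtotal nephrectomy, a model of chronic kidney disease (CKD), or a sham operation. WTSHAM mice were wild-type and lost no kidney tissue. WTCKD mice were wild-type with CKD and received a control vector through the tail vein, and WTCKD + RNLS mice received AAV9-cTnT-RNLS instead, a virus that expresses renalase (RNLS) from the cardiomyocyte troponin T promoter. KOCKD and KOCKD + RNLS mice carried a TALEN-made disruption of Rnls exon 4, had CKD and received the vector or the virus in the same way. No sham-operated knockout was among the libraries, so the knockout was compared only within CKD. Rnls is not among the genes analysed here, and the genotypes and the transgene rest on the sample labels.

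Proteins of this family bind actin through nebulin repeats, short modules that each contact an actin subunit. Nebulin (Neb) is a giant protein that runs along the thin filament of skeletal muscle and helps to set its length, and it is known to be scarce in the heart. Nebulette (Nebl) is the shorter cardiac relative anchored in the Z-disc, and the same gene also encodes the small LIM and SH3 protein LASP2. Nrap is a nebulin-related protein with a LIM domain that is found at the intercalated disc and in assembling myofibrils. Lasp1 is a small LIM and SH3 protein with only a few repeats that occurs in many cell types at sites of actin turnover.

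The 4 genes differ most plainly in size. In the NCBIM37 (mm9) annotation, Neb (ENSMUSG00000026950) lies on the minus strand of chromosome 2 from 51992167 to 52194318, and its longest coding transcript has 157 exons and 22489 bases. Nebl (ENSMUSG00000053702) lies on the same strand of chromosome 2 from 17265536 to 17653091, with 28 exons and 8079 bases in its longest coding transcript. Nrap (ENSMUSG00000049134) spans 56394525 to 56464527 on the minus strand of chromosome 19, with 42 exons and 5501 bases. Lasp1 (ENSMUSG00000038366) spans 97660314 to 97700078 on the plus strand of chromosome 11, with 7 exons and 3540 bases. Each of these spans includes exons, introns and untranslated ends, and the counts are sums over the exons of a gene. Nrap shares 268 exon bases with Habp2 and 108 with Gm17197 on the opposite strand, and since the strand setting of the counting was not given in the sources used here, its counts may include reads of those genes. The annotation also lists a second gene of the symbol Nrap (ENSMUSG00000092491) on the same strand, whose 5499 exon bases all lie in the first. The deposited table has 1 row for the symbol, and the gene length behind its FPKM, given below, differs by 1 base from the 5507 exon bases of the first.

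Neb carries the family's module in its longest series, and the stretches below are shown because reads inside them have 2 possible places within the gene. Of the 22365 windows as long as the shorter of the study's reads in the longest Neb transcript, 132 (0.59%) occurred there more than once. No window of Nebl, Nrap or Lasp1 occurred more than once in its own longest transcript. No window of any of the 4 was found in transcripts of genes outside the family, and the members were not searched against each other. Another repeated stretch, the longest at 158 bases, in exons 66 and 67 and in exons 70 and 71, does not hold the marked letters and is not shown. Capitals mark AGTGA, any 7 bases and TACAAG in a row, read on the sense strand only, which fall in the conserved motif of the repeat. The stretch of 149 bases occurs without a difference in exons 19 and 20 (the spliced ends of chr2:52160642-52160866) and in exons 26 and 27 (chr2:52154167-52154391), and the stretch of 131 bases in exon 57 (chr2:52114246-52114376) and exon 77 (chr2:52087620-52087750), all in mm9 on the minus strand.
Neb exons 19 and 20, also 26 and 27: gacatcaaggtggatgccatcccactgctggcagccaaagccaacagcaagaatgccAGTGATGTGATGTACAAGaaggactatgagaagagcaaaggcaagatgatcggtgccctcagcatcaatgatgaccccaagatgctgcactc
Neb exon 57, also exon 77: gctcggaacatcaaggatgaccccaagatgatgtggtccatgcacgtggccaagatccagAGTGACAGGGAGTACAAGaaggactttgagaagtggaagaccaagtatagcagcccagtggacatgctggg
The marked pattern occurred 23 times in the Neb transcript, 3 times in Nrap and 2 times in Nebl, each time in the reading frame, and it was not found in Lasp1. It fixes the bases of the motif, so repeats spelled with other bases are missed and these are not counts of repeats. Of 55443 coding transcripts of the mouse, those of the members included, 0.139% held it.

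The bases ahead of the transcription start are shown for Nrap and Lasp1, the member with the highest level per length and the member whose mean was lower with RNLS in both genotypes. RefSeq's promoter table (GRCm38.p6) matched 3 of the 4 members with 6 start sites, and for these 2 genes the start also matched an annotated transcript. Each sequence is the 250 bases ahead of the start, for Nrap chr19:56390039-56390288 on the minus strand and for Lasp1 chr11:97799315-97799564 on the plus strand. Capitals mark the motifs searched on both strands, which were the E-box CANNTG, the GC box GGGCGG, the M-CAT motif CATTCC, the TATA box TATAAA, the GATA motif as GATA, and the MEF2 and CArG motifs.
Nrap: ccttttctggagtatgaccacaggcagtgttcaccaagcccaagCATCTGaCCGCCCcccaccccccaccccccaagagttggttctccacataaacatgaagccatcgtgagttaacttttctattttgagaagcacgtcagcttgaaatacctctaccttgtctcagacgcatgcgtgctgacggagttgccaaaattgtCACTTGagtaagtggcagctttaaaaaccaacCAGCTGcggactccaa
Lasp1: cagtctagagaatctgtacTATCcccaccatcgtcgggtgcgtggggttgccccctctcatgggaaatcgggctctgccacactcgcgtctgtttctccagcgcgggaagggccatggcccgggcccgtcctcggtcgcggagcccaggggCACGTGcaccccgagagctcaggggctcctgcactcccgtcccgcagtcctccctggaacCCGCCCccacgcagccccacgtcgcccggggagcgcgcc
The Nrap sequence held 3 E-boxes and 1 GC box at a GC content of 50%, and the Lasp1 sequence held 1 E-box, 1 GC box and 1 GATA motif at 70.4%. Among all 32851 promoters of this length, 66.2% held an E-box, 32.7% a GC box and 53.6% a GATA motif. The M-CAT, TATA, MEF2 and CArG letters, held by 12.6%, 12.4%, 2.92% and 1.47% of promoters, were found in neither sequence.

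Levels of different genes can be compared only per length, and for this the deposited FPKM were used, the read counts scaled by gene length and library total. The gene length behind these values, recovered from the counts, was 23699 bases for Neb, 16618 for Nebl, 5506 for Nrap and 3949 for Lasp1. Neb and Nebl were thus longer than 99.1% and 97.7% of the genes tested, whereas Nrap and Lasp1 were longer than 72.2% and 54.6%. By this length only Neb and Nebl count among the giant genes. The exon bases in the mm9 annotation differed from it, at 26369 for Neb, 13995 for Nebl and 6495 for Lasp1. The percentiles and the FPKM rest on the recovered length, which for Nebl exceeds its annotated exon bases. On the FPKM scale the order did not follow size. Nrap had a mean FPKM of 183 over the 15 libraries, above 97.4% of the genes tested, and Nebl had 21.9 and Lasp1 12.6. The mean FPKM of Neb was 0.380, which is above only 7.94% of genes. For scale, titin (Ttn), the molecular spring of the sarcomere and by far the longest gene here at 117466 bases, had a mean FPKM of 43.2.

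**Figure D1:**
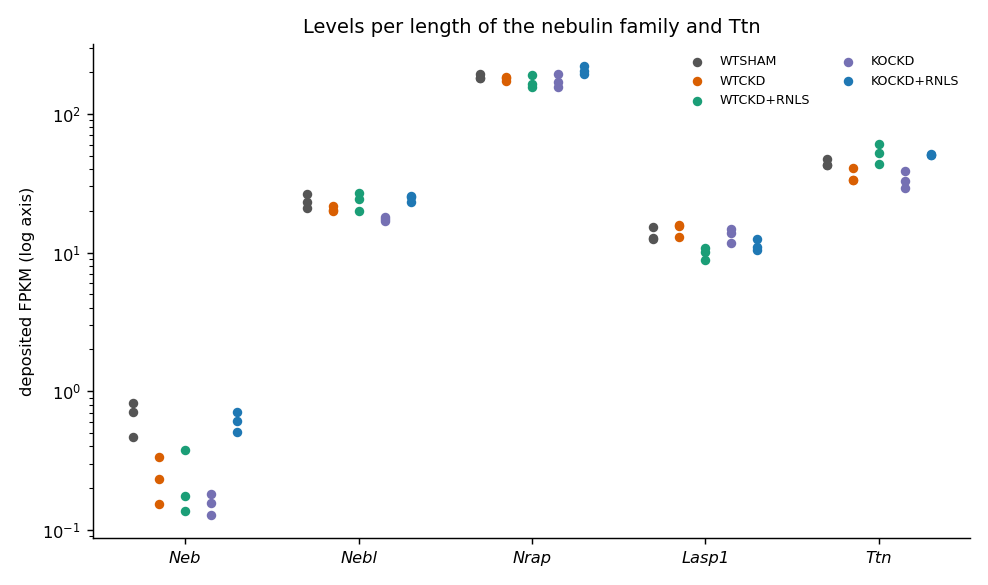
Deposited FPKM on a log axis for Neb, Nebl, Nrap, Lasp1 and Ttn, with a point for each of the 15 libraries coloured by group. Nrap stands highest at a mean of 183 FPKM, and Neb lies below 1 FPKM in every library.

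Within a gene, levels are given as CPM, counts relative to the library size after TMM scaling, with the SD over 3 mice. Neb, the nebulin of skeletal muscle, was rare but varied most between the groups. Its CPM was 17.0, 10.6 and 18.8 in the WTSHAM hearts and 3.63, 7.62 and 5.62 in the WTCKD hearts. WTCKD + RNLS hearts had 4.26, 3.53 and 9.11 CPM of Neb, KOCKD hearts had 4.29, 3.07 and 3.63 CPM, and KOCKD + RNLS hearts had 16.7, 11.9 and 14.4 CPM. All 3 WTSHAM and all 3 KOCKD + RNLS libraries lay above the 9 libraries of the other groups, among which replicate 3 of WTCKD + RNLS was the highest. The group means were 15.5 ± 4.30 CPM (SD, n = 3) in WTSHAM, 14.3 ± 2.38 CPM in KOCKD + RNLS, 5.63 ± 3.04 CPM in WTCKD + RNLS, 5.62 ± 1.99 CPM in WTCKD and 3.66 ± 0.607 CPM in KOCKD. In this order only KOCKD + RNLS and WTCKD + RNLS were neighbours whose libraries did not overlap. These levels rest on 33 to 255 counted reads per library, spread over the longest transcript of the family.

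Nebl, the cardiac nebulette, varied much less. Its CPM was 353, 364 and 427 in WTSHAM, 326, 346 and 341 in WTCKD, and 411, 357 and 456 in WTCKD + RNLS. In KOCKD hearts Nebl was at 289, 285 and 293 CPM, and in KOCKD + RNLS hearts at 425, 414 and 383 CPM. The 3 KOCKD libraries were the lowest of all 15, and the 3 WTCKD libraries came next without overlapping any other group. The means of the upper groups, 408 ± 49.7 CPM in WTCKD + RNLS, 407 ± 21.6 CPM in KOCKD + RNLS and 381 ± 40.0 CPM in WTSHAM, differed by less than the larger SD of each pair, and the lower groups had 338 ± 10.4 CPM (WTCKD) and 289 ± 4.20 CPM (KOCKD). Nebl counts ran from 3054 to 5954 per library. Because the count is for the whole gene, nebulette and LASP2 transcripts could not be told apart.

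Nrap, the disc-associated member, was abundant and nearly level. It was at 1086, 945 and 967 CPM in WTSHAM, 939, 984 and 1017 CPM in WTCKD, and 923, 936 and 1087 CPM in WTCKD + RNLS. KOCKD hearts had 1052, 873 and 917 CPM of Nrap, and KOCKD + RNLS hearts had 1112, 1202 and 1059 CPM. The KOCKD + RNLS libraries lay above the KOCKD libraries, with 1059 as their lowest and 1052 as the highest of KOCKD, and every neighbouring pair in the order of the group means overlapped. Those means ran from 947 ± 93.2 CPM in KOCKD to 1124 ± 71.9 CPM in KOCKD + RNLS.

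Lasp1, the small member found in many cell types, ran in a different order. Its CPM was 50.4, 57.1 and 48.9 in WTSHAM, 50.6, 59.4 and 63.8 in WTCKD, and 43.3, 38.0 and 41.3 in WTCKD + RNLS. The KOCKD hearts had 54.3, 59.7 and 45.2 CPM and the KOCKD + RNLS hearts 49.2, 42.7 and 40.7 CPM. The WTCKD + RNLS libraries lay below all WTCKD libraries, while KOCKD + RNLS overlapped KOCKD. The means were 57.9 ± 6.75 CPM in WTCKD, 53.1 ± 7.34 CPM in KOCKD, 52.1 ± 4.40 CPM in WTSHAM, 44.2 ± 4.44 CPM in KOCKD + RNLS and 40.8 ± 2.69 CPM in WTCKD + RNLS, and all neighbours in this order overlapped.

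**Figure D2:**
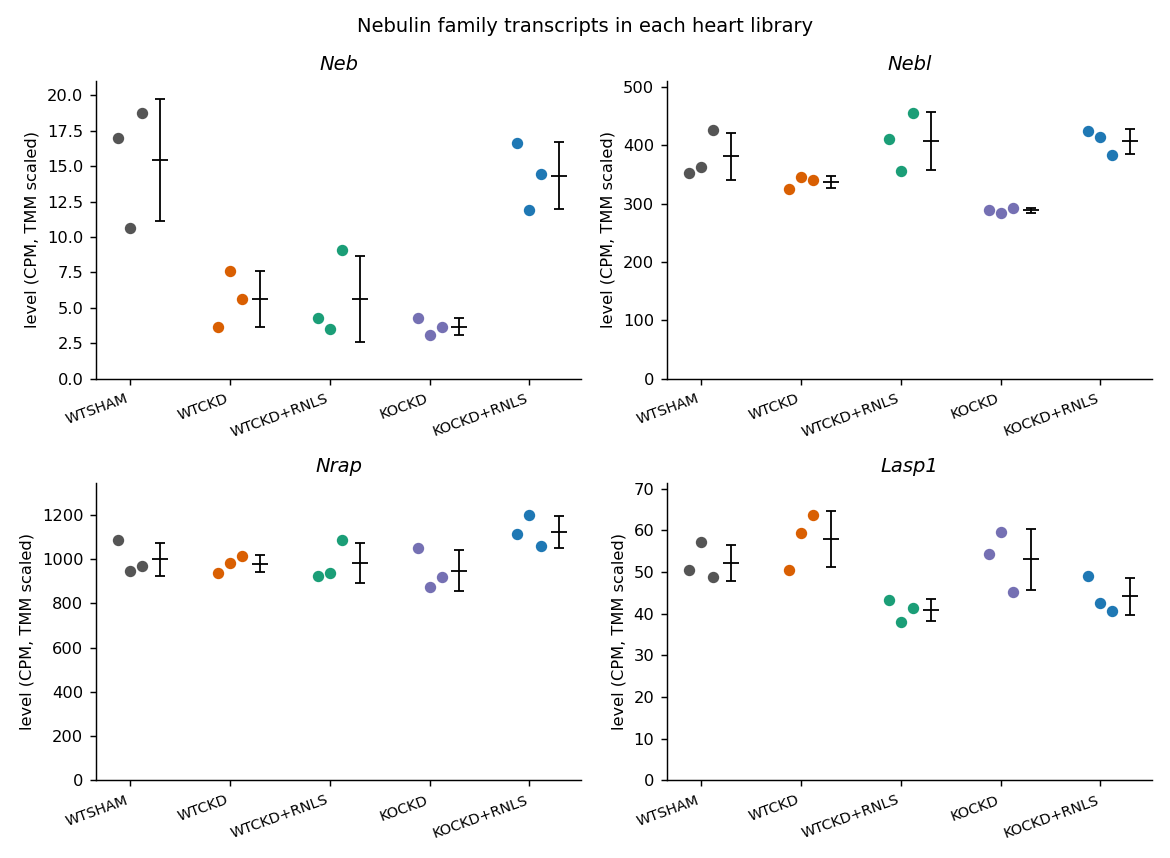
CPM after TMM scaling of the 4 members in each library, with a coloured point per library and a black bar for the group mean ± SD (n = 3). Neb is at 10.6 CPM or more in WTSHAM and KOCKD + RNLS and at 9.11 CPM or less elsewhere, and Nebl is lowest in the KOCKD libraries.

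The effect of CKD was taken as WTCKD against WTSHAM. The study names a vector injection for WTCKD and none for WTSHAM. The nephrectomy and the vector therefore cannot be told apart in this comparison. The log2 fold change was -1.46 ± 0.32 (SE) for Neb, -0.18 ± 0.09 for Nebl, -0.03 ± 0.09 for Nrap and 0.15 ± 0.11 for Lasp1. In edgeR's quasi-likelihood test over all genes, 2.30% of genes passed an adjusted p of 0.05 in either direction, and 1 of the 4 members, Neb, was among them. Since the members were chosen with these values in view, such calls of members, here and in the other comparisons, say only on which side of the threshold a value lay and are not a test of the members. The Neb call was lost when only the libraries compared were fitted (log2 fold change -1.46), without WTSHAM replicate 3 (-1.30), without WTCKD replicate 1 (-1.22) and without WTCKD replicate 3 (-1.46). The libraries of the groups did not overlap for Neb and Nebl, as for 22.5% of all genes. In the same test Ttn was at -0.27 ± 0.12 on the log2 scale (adjusted p = 0.229 in edgeR).

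The effect of the transgene in wild-type CKD hearts was taken as WTCKD + RNLS against WTCKD. The log2 fold change was 0.02 ± 0.34 for Neb, 0.27 ± 0.09 for Nebl, 0.00 ± 0.09 for Nrap and -0.50 ± 0.12 for Lasp1. Lasp1 was the 1 member called, against 4.47% of all genes, and the libraries did not overlap for Nebl and Lasp1, as for 21.2% of genes. The Lasp1 call was lost without WTCKD replicate 2 (-0.48), WTCKD replicate 3 (-0.43) or WTCKD + RNLS replicate 3 (-0.51). Without WTCKD + RNLS replicate 3, the library of that group with the most Neb, the Neb value became -0.52. Nebl was called by DESeq2 and without WTCKD + RNLS replicate 2 (0.34). Ttn rose by 0.60 ± 0.12 (edgeR adjusted p = 0.00912), from 3904, 3783 and 4886 CPM to 6226, 5564 and 7274 CPM.

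The same transgene in knockout CKD hearts was taken as KOCKD + RNLS against KOCKD. The log2 fold change was 1.96 ± 0.33 for Neb, 0.50 ± 0.09 for Nebl, 0.25 ± 0.09 for Nrap and -0.26 ± 0.12 for Lasp1. Neb and Nebl, 2 of the 4 members, were called, in a comparison that called 16.1% of all genes, 9.05% as higher and 7.04% as lower. The libraries did not overlap for Neb, Nebl and Nrap, as for 40.6% of genes. Nrap was called by DESeq2, when only the libraries compared were fitted, and without KOCKD replicate 1 (0.33). Ttn rose by 0.59 ± 0.12 (edgeR adjusted p = 0.00477), from 3383, 3911 and 4484 CPM to 6001, 5860 and 5826 CPM.

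The knockout within CKD was taken as KOCKD against WTCKD. The log2 fold change was -0.61 ± 0.35 for Neb, -0.23 ± 0.09 for Nebl, -0.05 ± 0.09 for Nrap and -0.13 ± 0.12 for Lasp1. No gene of the 13021 was called by edgeR, that is 0%, with 1318 at an unadjusted p under 0.05 and 3 called higher and 6 lower by DESeq2. The KOCKD libraries lay below all WTCKD libraries for Nebl, as the libraries did not overlap for 19.3% of genes. Ttn was at -0.09 ± 0.12 (edgeR adjusted p = 0.777). The RNLS effect in knockout hearts minus that in wild-type hearts was 1.94 ± 0.47 for Neb, 0.22 ± 0.13 for Nebl, 0.24 ± 0.13 for Nrap and 0.24 ± 0.16 for Lasp1. It was called for no gene by edgeR (0%), with 2288 at an unadjusted p under 0.05 and 132 called higher and 231 lower by DESeq2. These comparisons share the WTCKD and the KOCKD libraries and are not independent of each other.

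Gene length moved with these comparisons. For each library, the slope of log2 CPM on the log2 of gene length over all genes, relative to the mean of the libraries, was computed. It was negative in all 3 KOCKD libraries (-0.118 to -0.0754 per doubling of length) and positive in all 3 KOCKD + RNLS libraries (0.0620 to 0.0852). In the other groups it ran from -0.0114 to 0.0795 (WTSHAM), -0.0451 to 0.00279 (WTCKD) and -0.104 to 0.0693 (WTCKD + RNLS). Over the 13021 genes, the Spearman correlation of length with the log2 fold change, given as a description, was -0.237 for WTCKD against WTSHAM, 0.0707 for WTCKD + RNLS against WTCKD, 0.521 for KOCKD + RNLS against KOCKD and -0.405 for KOCKD against WTCKD. Of the 1014 genes of 10000 bases or more, 363 were called higher and 8 lower in KOCKD + RNLS against KOCKD, with a median log2 fold change of 0.34, against -0.01 over all genes. Neb and Nebl are among these long genes.

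Across the 15 libraries, Nebl followed the length slope most closely of the 4, with a Pearson r of 0.88 and a Spearman rho of 0.87 (r = 0.95 without the 2 libraries farthest from the median slope). For Neb the values were 0.80, 0.78 and 0.72, for Nrap 0.60, 0.66 and 0.44, and for Lasp1 -0.21, -0.32 and -0.36. These correlations describe 15 libraries that fall into 5 groups, and the slope is itself computed from counts that include the members.

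**Figure D3:**
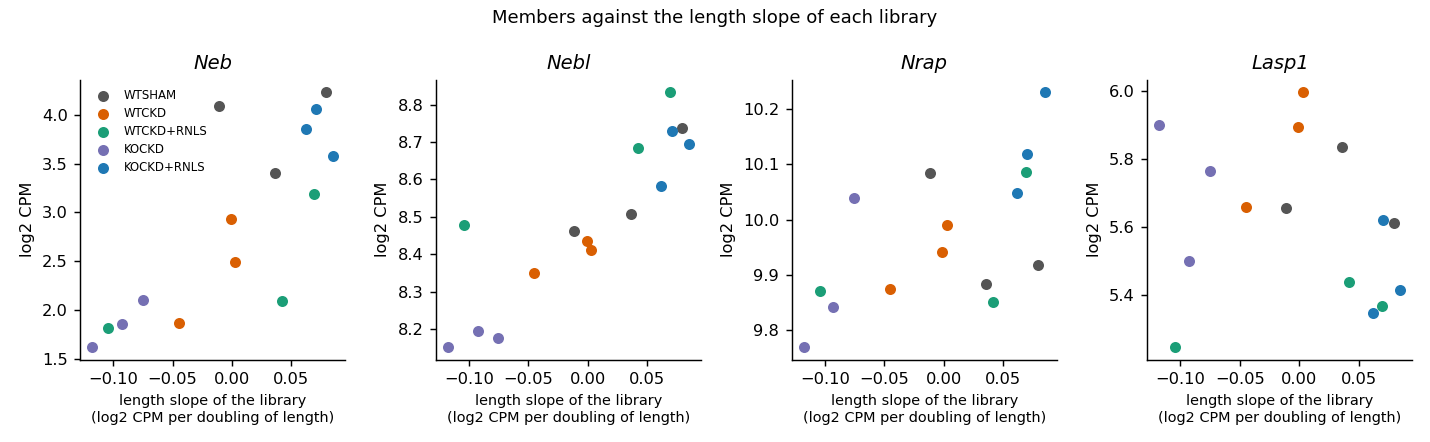
Log2 CPM of each member against the length slope of the library in log2 CPM per doubling of gene length, with a point per library coloured by group. Nebl is lowest in the KOCKD libraries, whose slopes are -0.118 to -0.0754, whereas Neb in KOCKD overlaps WTCKD and WTCKD + RNLS, and both genes lie above all KOCKD libraries in KOCKD + RNLS, whose slopes are 0.0620 to 0.0852.

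When a smooth trend on gene length was removed from each library by offsets in the same fit, Neb and Nebl moved by like amounts in KOCKD + RNLS against KOCKD but from different sizes. Neb went from 1.96 to 1.58 ± 0.30 and remained past the threshold, and Nebl went from 0.50 to 0.13 ± 0.06 and was no longer past it. In WTCKD against WTSHAM Neb went from -1.46 to -1.30 ± 0.29, also past the threshold before and after. Nebl went from 0.27 to 0.16 ± 0.06 in WTCKD + RNLS against WTCKD, and from -0.18 to -0.02 ± 0.06 in WTCKD against WTSHAM. Nrap went from 0.25 to 0.12 ± 0.08 in the knockout comparison. Lasp1, of middle length, was at -0.49 ± 0.11 in the wild-type and -0.30 ± 0.11 in the knockout comparison, past the threshold in the former. Ttn went from 0.59 to 0.10 ± 0.09 in the knockout hearts (edgeR adjusted p = 0.543) but was still higher in the wild-type hearts at 0.41 ± 0.09 (adjusted p = 0.0148). With these offsets 5.41% of all genes were called in KOCKD + RNLS against KOCKD, 5.67% in WTCKD + RNLS against WTCKD and 2.55% in WTCKD against WTSHAM. Whether the trend on length arose in the tissue or in the handling of the RNA was not tested.

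**Figure D4:**
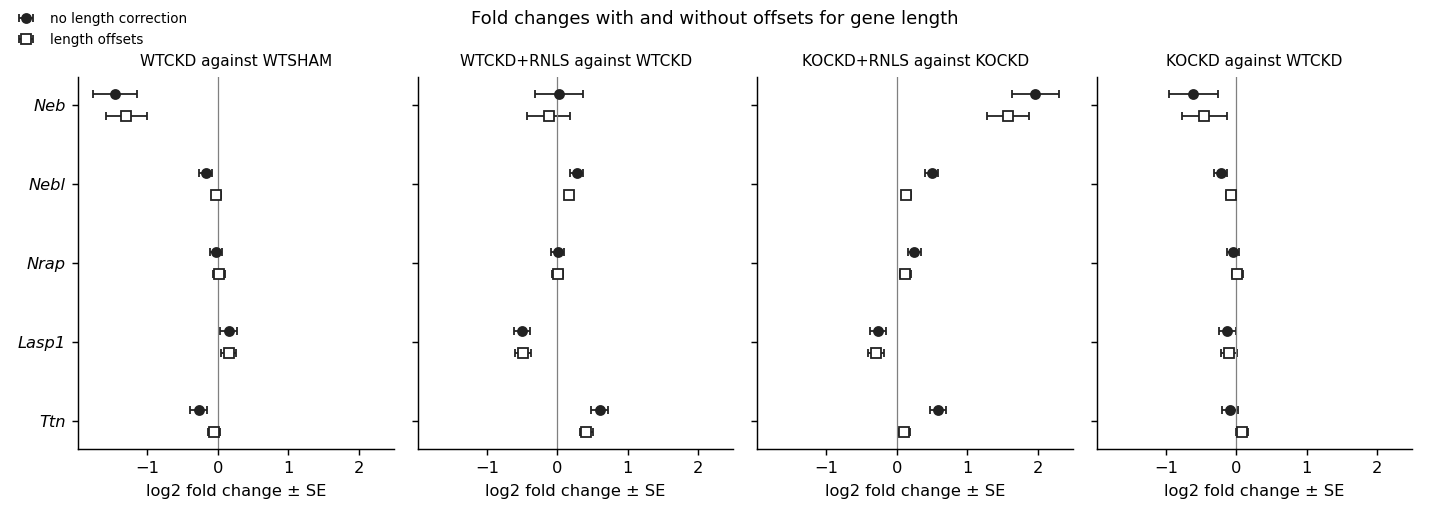
Log2 fold changes ± SE of the 4 members and Ttn in 4 comparisons, with filled circles without a correction for length and open squares with length offsets. In KOCKD + RNLS against KOCKD, Neb moves from 1.96 to 1.58, Nebl from 0.50 to 0.13 and Ttn from 0.59 to 0.10.

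The level of Neb was also set beside how the libraries are named in the deposited table. The 7 columns whose names open with WM or WT, which are the 3 WTSHAM, the 3 KOCKD + RNLS and replicate 3 of WTCKD + RNLS, had 9.11 to 18.8 CPM of Neb (median 14.4). The 8 columns whose names open with wm, RM or s had 3.07 to 7.62 CPM (median 3.95). For the other members these sets overlapped, with 353 to 456 against 285 to 411 CPM for Nebl, 945 to 1202 against 873 to 1052 CPM for Nrap and 40.7 to 57.1 against 38.0 to 63.8 CPM for Lasp1. The labels do not say what the opening letters mean, or that these openings belong together. They were pooled by hand with the levels of Neb known, and the sets are the 7 highest and the 8 lowest libraries for Neb. The separation for Neb, and its contrast with the other members, therefore cannot test whether the level goes with the names. In WTCKD against WTSHAM and in KOCKD + RNLS against KOCKD all libraries of a group share a set, so the set and the group cannot be told apart there. Only WTCKD + RNLS holds libraries of both sets, with 9.11 CPM of Neb in the single WM library and 4.26 and 3.53 CPM in the others.

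Because Neb is a skeletal muscle gene, markers of skeletal muscle were read beside it. The fast myosins Myh1, Myh2 and Myh4 had 0 to 2 counts in every library, and together with Actn3 and Mylpf they summed to 0.466 to 1.78 CPM. By group this sum was 0.809 to 1.50 CPM in WTSHAM, 1.02 to 1.78 CPM in WTCKD, 0.668 to 1.02 CPM in WTCKD + RNLS, 0.466 to 1.31 CPM in KOCKD and 0.468 to 1.06 CPM in KOCKD + RNLS, so the groups with the most Neb were not set apart by it. All 16 skeletal markers listed summed to 41.1 to 82.5 CPM, mostly from Mybpc2 and Cacna1s. Of the 7 that could be tested, 1 was called, Pvalb, which was higher in WTCKD + RNLS (2.39 ± 1.41 CPM) than in WTCKD (0.113 ± 0.195 CPM, edgeR adjusted p = 0.0278). Cardiomyocyte markers, read as a check of the labelled tissue, summed to 89329 to 123784 CPM. They were 92259 to 107144 CPM in WTCKD and 112610 to 123784 CPM in WTCKD + RNLS, and 95129 to 102038 CPM in KOCKD and 105538 to 107966 CPM in KOCKD + RNLS, without overlap in either pair. All 8 had a positive log2 fold change in the wild-type pair, with 0 called, but in the knockout pair 6 of 8 were negative (median -0.08; 7 positive and a median of 0.11 with length offsets), and the 1 called was the cardiac myosin Myh6, at 0.52 (edgeR adjusted p = 0.00217). Endothelial markers moved the other way, at 1144 to 1311 CPM in WTCKD against 829 to 874 CPM in WTCKD + RNLS, with 4 of 5 called lower, and at 1017 to 1203 CPM in KOCKD against 951 to 968 CPM in KOCKD + RNLS, with 1 of 5 called lower. Fibroblast markers were at 1061 to 1570 CPM in WTCKD against 781 to 953 CPM in WTCKD + RNLS, and at 916 to 1206 CPM in KOCKD against 752 to 856 CPM in KOCKD + RNLS, with 2 of 6, the collagens Col1a1 and Col3a1, called lower each time. Atrial markers varied most within groups, at 154 to 1299 CPM in WTSHAM, 87.9 to 2588 CPM in WTCKD, 124.5 to 519 CPM in WTCKD + RNLS, 120 to 2751 CPM in KOCKD and 134 to 290 CPM in KOCKD + RNLS. All 6 that could be tested were lower in both RNLS comparisons, with 0 called in WTCKD + RNLS against WTCKD and 3 in KOCKD + RNLS against KOCKD. These were Myl7, Myl4 and Sln, at 4.85 to 805, 8.39 to 774 and 0.280 to 133 CPM in KOCKD against 0.325 to 0.749, 1.30 to 2.15 and 0 to 0.0937 CPM in KOCKD + RNLS (edgeR adjusted p = 0.0289, 0.0294 and 0.0430), and with length offsets 1 of 6 was called. Beside these marker counts, 2.19% of all genes were called higher and 2.28% lower in WTCKD + RNLS against WTCKD. In KOCKD + RNLS against KOCKD the shares were 9.05% and 7.04%, and with length offsets 2.72% and 2.69%. The part of the marker shifts in the values of Lasp1, Nebl and Nrap was not tested. In RNA of heart tissue, fewer cells of a type and less RNA per cell cannot be told apart. The paper does not say which part of the heart was taken for RNA.

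The other genes of the sarcomere scaffold were taken in 5 lists written by hand, 80 genes in all, of which 78 could be tested. In WTCKD against WTSHAM, 1 of 78 was called higher (1.28%) and 1 lower (1.28%), beside 0.599% and 1.70% of all genes. Dystonin (Dst), a long linker of the cytoskeleton, fell by 0.55 on the log2 scale (edgeR adjusted p = 0.0438), and plakophilin 2 (Pkp2), a desmosomal protein of the intercalated disc, rose by 0.45 (adjusted p = 0.00763). The Dst list had no call without WTSHAM replicate 2 or 3 or without WTCKD replicate 1 or 2. In WTCKD + RNLS against WTCKD, 2 were higher and 1 lower, beside 2.19% and 2.28% of all genes. These were Ttn, telethonin (Tcap), which caps titin at the Z-disc and rose by 0.86 (edgeR adjusted p = 0.0476), and the tropomyosin Tpm3, which fell by 0.46 (adjusted p = 0.0200). The Z-disc list, to which Tcap belongs, had no call when any library of WTCKD or replicate 1 or 3 of WTCKD + RNLS was left out, and the thin filament list had none without WTCKD replicate 1 or 2 or WTCKD + RNLS replicate 3. In KOCKD against WTCKD none of the 78 was called by edgeR or DESeq2, with 11 at an unadjusted p under 0.05. In the difference between the genotypes edgeR called none, with 16 at an unadjusted p under 0.05, and DESeq2 called 4. Of all genes 10.1% and 17.6% were at that unadjusted p, in the same order.

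KOCKD + RNLS against KOCKD had the most calls, 16 higher (20.5%) and 5 lower (6.41%) of 78, beside 9.05% and 7.04% of all genes. Among the 62 of these genes under 10000 bases, 5 were higher and 5 lower (8.06% each), and among the 16 longer ones 11 were higher and 0 lower. Of all genes tested of 10000 bases or more, 35.8% were called higher and 0.789% lower. The giant scaffold list, long linkers of the sarcomere, membrane and cytoskeleton, held 10 of 13 genes that rose. Its median log2 fold change was 0.49, against -0.01 over all genes and 0.34 over the genes of 10000 bases or more. The largest rises were in Dst (0.84), dystrophin Dmd (0.69), the nuclear envelope linker Syne2 (0.68), utrophin Utrn (0.65), Ttn (0.59) and the microtubule and actin linker Macf1 (0.49), with edgeR adjusted p from 0.00211 to 0.0215. With length offsets 2 of 13 were called higher, Dst at 0.42 and Utrn at 0.28 (edgeR adjusted p = 0.0130 and 0.0447), and the median of the list was 0.06. Under the same offsets 2.72% of all genes were called higher and 2.69% lower. Among the genes of 10000 bases or more these shares were 5.52% and 4.93%. Of the intercalated disc list, where Nrap is found, 5 of 18 rose, and with length offsets 3 of 18. They were desmoglein Dsg2 (0.72), the alpha-catenin Ctnna3 (0.64), desmoplakin Dsp (0.56), the junction scaffold Tjp1 (0.42) and talin Tln2 (0.37), with adjusted p from 0.00279 to 0.0131 in edgeR, and with offsets Dsg2, Ctnna3 and Dsp stayed called at 0.58, 0.60 and 0.35.

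The thin filament, Z-disc and focal adhesion lists had fewer calls in the knockout hearts. Of the thin filament list, which holds the actin and tropomyosin partners of nebulin, 2 of 18 fell, the tropomyosin Tpm2 by 0.83 and Klhl40, a protein known to stabilize nebulin, by 0.46 (edgeR adjusted p = 0.00398 and 0.0381). That is 11.1%, beside 7.04% of all genes. With length offsets 1 of 18 was lower (5.56%), beside 2.69% of all genes. Of 17 Z-disc genes tested, the actin cross-linker Palld rose by 0.56, and the LIM protein Csrp3, Pdlim3 and the chaperone Cryab fell by 0.40, 0.66 and 0.36 (edgeR adjusted p = 0.00236, 0.00477, 0.0470 and 0.0416), which is 5.88% higher and 17.6% lower beside 9.05% and 7.04% of all genes. With offsets Palld alone of these was called, at 0.35. Leaving out any 1 of the 6 libraries lowered the calls in the 5 lists from 21 to between 15 and 18. Fitting only the libraries compared raised them. The giant scaffold list then had 11 called higher and the intercalated disc list 8 higher. The thin filament list had 3 lower, and the Z-disc list 2 higher and 5 lower. No focal adhesion gene of 12 was called in any comparison by edgeR with all 15 libraries fitted. In KOCKD + RNLS against KOCKD, edgeR called 1 higher when only the libraries compared were fitted, or when replicate 3 of either group was left out. DESeq2 called 2 in that comparison and 0 in the others. In the order in which the comparisons were given, 1, 2, 2, 3 and 1 were at an unadjusted p under 0.05 in edgeR. Of all genes 17.6%, 20.2%, 31.6%, 10.1% and 17.6% were at that unadjusted p. In KOCKD + RNLS against KOCKD, DESeq2 called 1349 of all genes higher and 1052 lower.

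**Figure D5:**
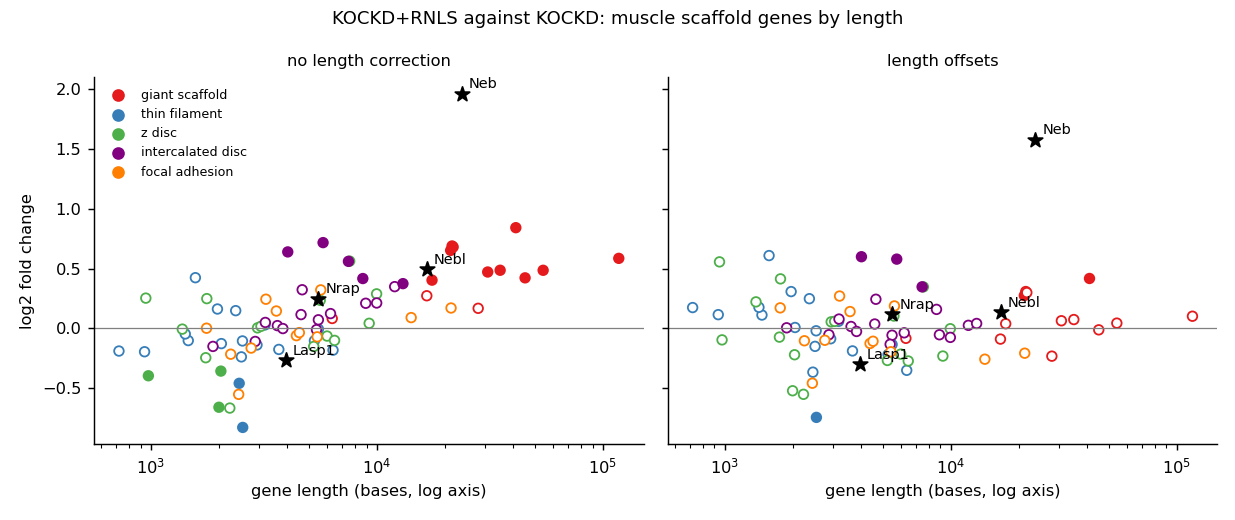
Log2 fold change in KOCKD + RNLS against KOCKD against gene length on a log axis for the genes of the 5 scaffold lists, filled where the adjusted p is under 0.05, without (left) and with (right) length offsets, with the 4 members as black stars. The giant scaffold list has 10 filled points of 13 on the left and 2 on the right, and Neb lies at 1.96 and 1.58.

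The members were also set beside each other and beside the genes most like them over the 15 libraries, by the Pearson correlation of log2 CPM among 11727 genes with an average log2 CPM above 1. Neb correlated at 0.67 with Nebl, 0.65 with Nrap and -0.10 with Lasp1, and Nebl at 0.50 with Nrap, -0.49 with Lasp1 and 0.86 with Ttn. The genes most like Neb were Deptor (r = 0.93, rho = 0.95), Tead1 (r = 0.92, rho = 0.90) and Lnpep (r = 0.91, rho = 0.87). Those most like Nebl were Cnot1 (r = 0.96, rho = 0.94), Huwe1 (r = 0.96, rho = 0.95) and the Z-disc gene Palld (r = 0.96, rho = 0.96). For Nrap they were Limch1, Igdcc4 and C77080, each at r = 0.87, with rho of 0.90, 0.86 and 0.78. For Lasp1 they were the actin-binding Cald1 (r = 0.94, rho = 0.93), Tbc1d9 (r = 0.93, rho = 0.92) and Papss1 (r = 0.91, rho = 0.87). Without the 2 libraries farthest from the median of the member, r stayed between 0.89 and 0.96 for the genes named for Neb and Nebl, between 0.86 and 0.92 for Lasp1 and between 0.76 and 0.77 for Nrap. The genes named for Neb, Nebl and Nrap are 5659 to 15885 bases long, and those named for Lasp1 are 3330 to 7919. All of these points share the libraries, their groups and their length slopes.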

How the data were processed

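Heart RNA from 15 mice was sequenced after a stranded mRNA preparation as paired reads. By the study's methods the authors trimmed the reads with Trimmomatic, mapped them with hisat2 and counted them per gene with htseq-count, and they deposited raw counts without normalization and FPKM from cufflinks. The supplement names mm9 and the submitters' processing notes name GRCm39 as the genome, and the tool versions, gene annotation and strand option were not given in the sources used here. The deposited FPKM scale each count by the library's total and by 1 length per gene, which was recovered from them. All columns were mapped to a mouse by its label.

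All 15 libraries held 10480788 to 13424078 counts on 17447 genes. The R packages edgeR 4.0.16 and limma 3.58.1 (R 4.3.3) were used for TMM scaling (factors 0.925 to 1.05), the default filter (minimum count 10, total 15), a quasi-likelihood model of the 5 groups without further terms and Benjamini-Hochberg adjustment over 13021 genes, and a call is an adjusted p under 0.05. Log2 CPM used a prior count of 2. Length offsets were fitted as each library's smooth trend on gene length. The alternatives were DESeq2 1.42.0, RLE size factors, no filter, a replicate block, only the libraries compared, leaving out each library and the study's threshold. The code was tested on simulated data. Figures used Python 3.11.15, pandas 2.3.3 and matplotlib 3.10.9. Positions and transcripts are those of mm9, and promoters are RefSeq's in GRCm38.p6.

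The members, lists and tests were chosen with earlier results of these data known. The genes named were the members, Ttn, up to 6 called genes of each scaffold list by fold change in each comparison, the 3 genes most like each member, and marker genes beside results they bear on. A further gene of this rule is not reported here. Labels do not say whether the 3 mice of a group were kept apart in handling, and p-values measure the spread between these libraries. An exact test of 3 against 3 cannot give a p below 0.1, so single genes were tested in the model only. Counting error for Neb rests on 33 to 255 reads per library.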

Additional observations from a re-analysis of the deposited data

How the results depend on the processing

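Of 572 values recomputed under an alternative, 529 stayed within the limits set (316 of 330 fold changes, all 100 group means). The sign changed in 20 fold changes, of which 0 were past the threshold in the values reported. They were 4 for Neb in WTCKD + RNLS against WTCKD (-0.045 with a replicate block, -0.12 with length offsets, -0.22 without WTCKD replicate 1 and -0.52 without WTCKD + RNLS replicate 3, against 0.02), 7 for Nrap, all between -0.074 and 0.036, 1 for Nebl in the genotype difference and 8 for Ttn. With length offsets, in the order WTCKD against WTSHAM, WTCKD + RNLS against WTCKD, KOCKD + RNLS against KOCKD, KOCKD against WTCKD and the genotype difference, the log2 fold change was -0.021, 0.16, 0.13, -0.083 and -0.027 for Nebl and -0.056, 0.41, 0.10, 0.078 and -0.31 for Ttn. For Nrap it was 0.12 both in KOCKD + RNLS against KOCKD and in the genotype difference. Offsets left 7 scaffold calls (6 higher, 1 lower) and 1 member called in KOCKD + RNLS against KOCKD, and 354 genes higher and 350 lower in place of 1178 and 917. DESeq2 called 4, 5 and 4 scaffold genes in WTCKD against WTSHAM, WTCKD + RNLS against WTCKD and the genotype difference, and 2 members in the second of these. Over all genes DESeq2 called 211 higher and 373 lower, 453 and 441, and 132 and 231, in the same order. At the study's own threshold on the fold change and the unadjusted p the scaffold counts were 8, 8 and 9, with 3 in KOCKD against WTCKD. Of all genes 11.3%, 14.4% and 15.2% passed it, and 5.62% in KOCKD against WTCKD. In the genotype difference 1 member passed it. With only the libraries compared, WTCKD against WTSHAM had 0 scaffold calls and 0 members called. Leaving out each library in turn gave 1 to 4 scaffold calls and 0 to 1 members in WTCKD against WTSHAM, and 1 to 8 and 0 to 2 in WTCKD + RNLS against WTCKD. It moved Neb between -0.52 and 0.30 in WTCKD + RNLS against WTCKD and between 1.67 and 2.49 in the genotype difference, the extremes -0.52 and 2.49 being without WTCKD + RNLS replicate 3. The cause of these shifts was not tested.

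Replicate numbers did not pair the libraries, as the deviations of 30 same-numbered pairs correlated at -0.36 to 0.33 (median -0.04) and 4 of 15 libraries correlated best with their own number. With a replicate block the scaffold calls were 2, 2, 20 and 0 in the 4 pairwise comparisons and the member calls 1, 1, 2 and 0. The median over genes of the shift in log2 fold change was at most 0.0080 in size with RLE size factors and 0.025 with length offsets. Single genes, Nebl and Ttn among them, moved further with the offsets. Depth limits Neb most, at 33 to 255 reads per library.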
